A study of Mus musculus with 2 samples.

Results

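The genes described here are 9 components of the inflammasome and of pyroptosis, chosen by name from the 31053 genes of the count tables: the sensors Nlrp3, Aim2 and Nlrp10, the adaptor Pycard, the caspases Casp1 and Casp4, and the gasdermins Gsdmd, Gsdma and Gsdmc. All 9 symbols were found once. They were measured by droplet single-cell RNA-seq in inflamed skin of wild-type C57BL/6 mice that carried no transgene and had received imiquimod, a TLR7/8 agonist cream that elicits psoriasiform dermatitis, for 5 consecutive days. The labels give 10 week-old mice and ear skin, and the study's methods describe younger mice. There was 1 library of sorted live dermal cells and 1 of sorted live epidermal cells, and no untreated library was analysed here, so that no value below describes an effect of imiquimod.

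An inflammasome is a cytosolic complex in which a sensor recruits the adaptor ASC, encoded by Pycard, and thereby activates caspase-1. Caspase-1 matures IL-1β and IL-18 and cleaves gasdermin D, whose freed amino-terminal part opens pores in the plasma membrane and causes the lytic death called pyroptosis; caspase-11, encoded by Casp4 in the mouse, cleaves gasdermin D after sensing cytosolic lipopolysaccharide. In skin, the pathway is best known from myeloid cells, while keratinocytes carry gasdermins of the A and C families and the atypical family member NLRP10, which lacks the leucine-rich repeats of its relatives.

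After barcodes with fewer than 200 genes or more than 10% mitochondrial UMIs were left out, 4747 of 5376 dermal barcodes (median 7010 UMIs per cell) and 4173 of 5258 epidermal barcodes (median 25918) remained, and 30 barcode sequences occurred in both retained sets. Marker gates assigned 77.1% of the dermal and 97.3% of the epidermal cells to a type, which left 877 dermal cells in no gate and 210 in several. The 14 groups with 50 or more cells (8 dermal, 6 epidermal) carry the comparisons. Ptprc, which encodes CD45, was detected in 64% of dermal cells, and the dermal library also held 330 fibroblast-gated cells although the methods describe a CD45+ sort. No gate was applied for granular keratinocytes, the most differentiated living layer, so such cells may lie within other keratinocyte groups. In the epidermal library, Flg was counted 4 times and Flg2 not at all, but the late genes Lor (470 UMIs in 406 cells), Cnfn (1801 in 515) and Ivl (1762 in 991) were present. Groups are named by their gate. A level, in CPM, is the summed UMIs of a gene over all UMIs of a cell group, times 1000000, given with its exact Poisson 95% interval, and a share is the percentage of cells with a UMI, given with its exact (Clopper-Pearson) 95% interval. With 1 library per tissue, these intervals cover counting error only, no test between animals was possible, and dermis cannot be told apart from the dermal library.

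The genes lie on chromosomes 1, 7, 9, 11 and 15 of GRCm38 (GENCODE M21). Casp1 (chr9:5298517-5307265, plus strand) and Casp4 (chr9:5308828-5336783, plus strand) are neighbours, as are Gsdmc (chr15:63775968-63808759, minus strand) and its paralog Gsdmc2 (chr15:63824346-63845177, minus strand). Nlrp3 is at chr11:59541568-59566956 (plus), Pycard at chr7:127989708-127993867 (minus), Nlrp10 at chr7:108921852-108930178 (minus), Aim2 at chr1:173350879-173466040 (plus), Gsdmd at chr15:75862327-75867408 (plus) and Gsdma at chr11:98664351-98677708 (plus). Promoters were found for 5 of the 9 genes among the RefSeq starts given for GRCm38.p6. The 250 bases before the start are printed here for the 4 genes that differed most clearly between dermal neutrophils and macrophages, the first pair higher in neutrophils and the second pair lower. Capitals mark matches, on either strand, to the NF-κB consensus, the PU.1 core GAGGAA or the C/EBP motif TTGCNNAA. Matches to different motifs did not overlap in these windows. For Nlrp3, the upstream of its listed starts is given (chr11:59541319-59541568, plus), since the window of the other lies inside the gene; the others are Casp4 (chr9:5308599-5308848, plus), whose RefSeq start lies just inside the GENCODE gene, Casp1 (chr9:5298267-5298516, plus) and Pycard (chr7:127993868-127994117, minus).
Nlrp3: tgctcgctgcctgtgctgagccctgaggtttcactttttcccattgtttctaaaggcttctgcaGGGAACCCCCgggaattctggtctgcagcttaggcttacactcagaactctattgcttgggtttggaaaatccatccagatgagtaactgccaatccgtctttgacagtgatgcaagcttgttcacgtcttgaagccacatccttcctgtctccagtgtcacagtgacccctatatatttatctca
Casp4: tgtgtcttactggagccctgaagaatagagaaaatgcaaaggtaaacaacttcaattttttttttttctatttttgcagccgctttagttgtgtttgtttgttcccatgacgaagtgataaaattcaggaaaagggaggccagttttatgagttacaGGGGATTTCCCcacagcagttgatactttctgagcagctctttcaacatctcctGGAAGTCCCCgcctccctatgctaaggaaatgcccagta
Casp1: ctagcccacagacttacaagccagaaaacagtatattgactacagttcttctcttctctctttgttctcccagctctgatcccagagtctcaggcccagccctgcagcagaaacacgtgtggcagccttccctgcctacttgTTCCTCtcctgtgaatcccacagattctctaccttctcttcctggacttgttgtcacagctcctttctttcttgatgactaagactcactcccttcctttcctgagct
Pycard: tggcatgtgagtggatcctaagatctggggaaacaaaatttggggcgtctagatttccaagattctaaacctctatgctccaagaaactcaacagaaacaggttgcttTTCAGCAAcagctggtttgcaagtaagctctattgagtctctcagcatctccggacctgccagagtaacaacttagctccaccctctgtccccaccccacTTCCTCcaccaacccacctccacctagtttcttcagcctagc

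The Casp4 window held 3 NF-κB matches, of which 2 overlap each other 93 and 92 bases before the start and the other begins 39 bases before it. The Nlrp3 window held 1, 186 bases before the start. The Casp1 and Pycard windows held none, but each had 1 PU.1 core, and Pycard had 1 C/EBP match. The window of the other Nlrp3 start (chr11:59542436-59542685, plus) differed from the printed one, with 0 NF-κB matches and 3 PU.1 cores. Over all 32851 promoters, windows of this length held an NF-κB match in 7.25%, the PU.1 core in 23.3% and the C/EBP match in 9.56%. The AP-1 motif TGANTCA (6.75% of promoters) and the interferon response element (2.98%) were found in none of the 4 windows. These matches describe the letters of the windows and nothing about binding.

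The members divided between the libraries, which differed in sort and cell mix. The study describes a CD45+ sort for dermis and no such selection for epidermis, where 65.5% of retained cells were basal keratinocytes. The library ratios below therefore include the difference in cell types. In the retained dermal cells, Nlrp3 had 2217 UMIs in 1133 cells, against 43 UMIs in 41 epidermal cells, a 134-fold difference in level (99.2 to 186). Gsdmd was 27.3-fold higher in the dermal library (23.4 to 32.0), Casp4 7.45-fold (6.75 to 8.24), Casp1 4.0-fold (3.66 to 4.37) and Aim2 2.95-fold (2.60 to 3.34). Pycard was the most even of these, 421 against 275 CPM, or 1.53-fold (1.50 to 1.56). Nlrp10 went the other way, with 1247 epidermal and 24 dermal UMIs, a 19.98-fold difference (13.4 to 31.3). Gsdmc had 363 epidermal UMIs and 0 in the dermis, where 3 counts would have been 0.0743 CPM, and Gsdma had 83 against 5, of which 4 were in dermal monocytes. The plot of all 9 genes by cell type shows the same division at the level of gated types.

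**Figure D1:**
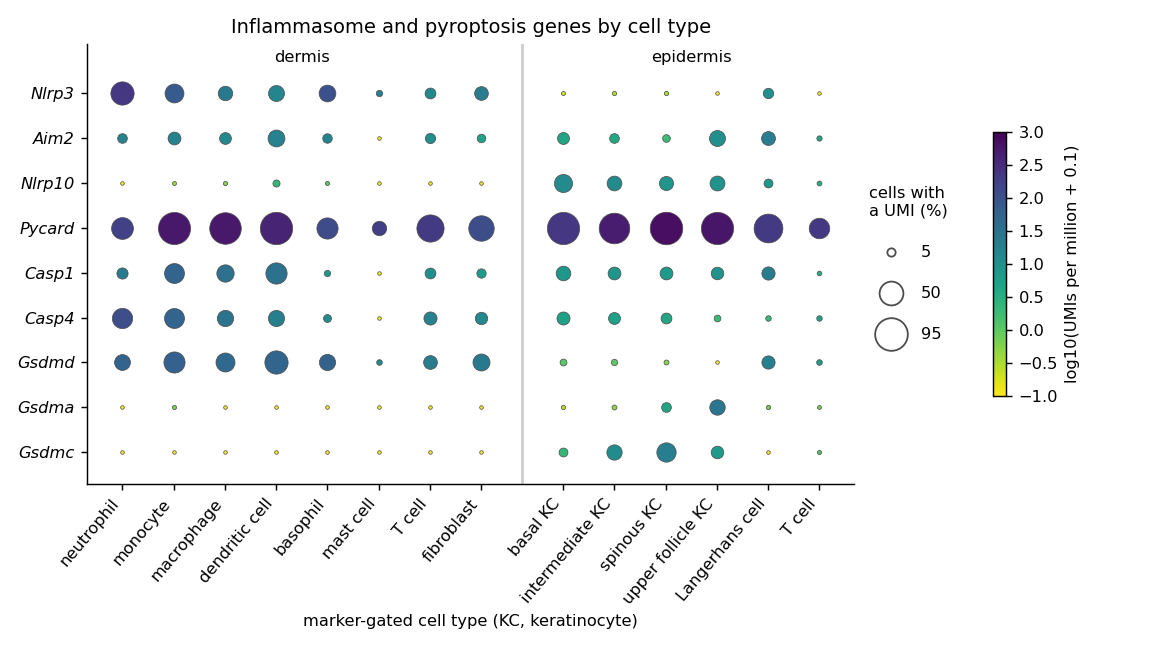
Each circle is 1 gene in 1 marker-gated cell type with 50 or more cells; its area grows with the percentage of cells with a UMI and its colour gives log10 of the summed CPM plus 0.1. Nlrp3, Casp1, Casp4 and Gsdmd are darkest in the dermal myeloid columns, Pycard is dark in nearly all columns, and Nlrp10, Gsdma and Gsdmc have visible circles in keratinocyte (KC) columns. Shares are not corrected for depth, which differs between types.

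NLRP3 responds to potassium loss, membrane damage and crystals. Its RNA was highest in neutrophil-gated dermal cells at 236 CPM (219 to 254), followed by basophil-gated cells at 99.9 (82.2 to 120.4), monocyte-gated cells at 74.0 (67.9 to 80.5) and macrophage-gated cells at 24.2 (21.3 to 27.2). Neighbours among these 4 differed beyond counting error. Below macrophages came fibroblasts (22.1), mast cells (19.8, from 3 UMIs), dendritic cells (15.2), dermal T cells (13.4) and epidermal Langerhans cells (10.4). From macrophages to Langerhans cells no neighbours differed beyond counting error. Only neighbours were compared there, and groups further apart can differ. Langerhans cells were 48.0-fold above the next group, spinous keratinocytes (7.46 to 2014). Keratinocytes were near 0: 8 UMIs were counted in 2733 basal keratinocytes (0.0902 CPM), 1 each in the intermediate and spinous groups and 0 in the upper follicle group. The 524 T cells of the epidermis also had 0, whereas the 265 dermal T cells had 33. The dermal level was 7.76-fold the epidermal floor of 3 counts, and the lower exact limit for 33 against 0 was 5.97.

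Nlrp3 UMIs were unevenly spread over the cells of a type. Cells of a type also differed in depth, and the part of depth in this spread was not tested. A UMI was found in 47.7% of neutrophils (43.6 to 51.8%; median depth 3771 UMIs), 31.1% of monocytes (median 8760), 24.2% of basophils (median 4358), 17.8% of macrophages (median 8448) and 0.293% of basal keratinocytes (median 32546). In cells thinned to 1000 UMIs the shares were 22.0% (18.7 to 25.6%) in neutrophils, 7.88% in basophils, 6.43% in monocytes and 3.20% in macrophages. These shares fell in the order of the levels, but basophils (19 of 241 cells) and monocytes (52 of 809) lay close together. Of the neutrophils, 310 had no Nlrp3 UMI, 117 had 1, 67 had 2, 66 had 3 to 4 and 33 had 5 or more, with a maximum of 15. Among macrophages only 2 of 1073 cells had 5 or more. The 5 richest neutrophils held 7.92% of the type's Nlrp3 UMIs, and the 5 richest basophils 30.6% of theirs.

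**Figure D2:**
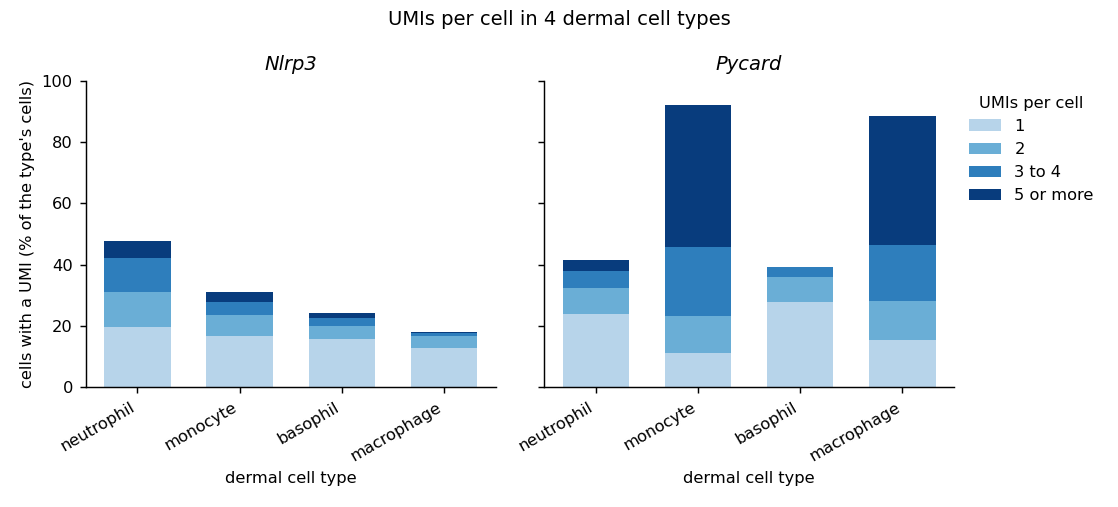
Stacked bars give the percentage of cells of 4 dermal types with 1, 2, 3 to 4 or 5 or more UMIs of Nlrp3 (left) and Pycard (right). Nlrp3 bars fall from 47.7% in neutrophils to 17.8% in macrophages, whereas Pycard bars reach 92.0% in monocytes and 88.6% in macrophages against 41.7% in neutrophils and 39.3% in basophils.

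Transcripts released by broken neutrophils can enter droplets of other cells, so Nlrp3 was set against S100a9, an abundant neutrophil transcript. In neutrophils there were 3.26 Nlrp3 UMIs per 1000 S100a9 UMIs (3.02 to 3.51). The ratio was higher in every other dermal group with 50 or more cells, and its interval lay above that of neutrophils in 6 of 7. It was 6.54 (5.27 to 8.03) in fibroblasts, 15.8 (13.9 to 17.8) in macrophages, 23.5 (21.5 to 25.5) in monocytes and 60.6 (49.8 to 72.9) in basophils. Mast cells, with 3 UMIs, were the exception, at 11.4 (2.34 to 33.2). This ratio concerns neutrophil RNA only. Free RNA of other cell types can also carry Nlrp3, and its part in these UMIs was not tested. Cells that passed several gates had 111 Nlrp3 CPM and 15382 S100a9 CPM, and they enter no comparison.

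AIM2 binds cytosolic double-stranded DNA. Aim2 had overlapping intervals in 7 immune groups: it was 20.8 CPM in Langerhans cells (14.2 to 29.4), 17.4 in monocytes, 16.9 in dendritic cells, 16.3 in neutrophils, 16.2 in basophils, 12.8 in macrophages and 10.6 in dermal T cells. No neighbours in that order differed beyond counting error, but monocytes over macrophages did (1.37, 1.07 to 1.75). So did the ends of the order, Langerhans cells over dermal T cells (1.97, 1.14 to 3.44). Both groups had the same UMI counts for Aim2 as for Casp1, 32 and 26. Among keratinocytes, the upper follicle group had 10.1 (5.78 to 16.4), against 4.33 in the basal, 3.83 in the intermediate and 1.73 in the spinous group (0.749 to 3.42). Upper follicle over basal was 2.34 (1.32 to 3.84). Fibroblasts (4.62) and epidermal T cells (4.61, 1.99 to 9.09) were near the basal level, and mast cells had 0 UMIs. Mast cells had a median depth of 825 UMIs, and 3 counts there would be 19.8 CPM, so their 0 does not rank them. Dermal over epidermal T cells was 2.29 (1.01 to 5.86). Its detection was too sparse for a view by cell: a UMI was seen in 24.5% of dendritic cells (median 15056 UMIs) but in only 1.36% of the same cells at 1000 UMIs.

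Most Nlrp10 UMIs came from basal keratinocytes, with 1105 of 1247 in the epidermal library (88.6%). Basal keratinocytes were 65.5% of the retained epidermal cells, but they held 88666226 of the 105033363 retained epidermal UMIs of all genes. The share of Nlrp10 was thus near their share of all RNA. Nlrp10 levels were 12.5 CPM in basal (11.7 to 13.2), 12.4 in intermediate, 8.85 in upper follicle and 8.24 in spinous keratinocytes (5.83 to 11.3). No neighbours in this order differed beyond counting error, although spinous over basal did (ratio 0.661, 0.465 to 0.913). With each cell weighted equally, the spinous over basal ratio was 0.997. Dermal neutrophils, mast cells, T cells and fibroblasts had 0 UMIs, and dermal macrophages had 5 in 1073 cells. In the shallow mast cells, 3 counts would be 19.8 CPM, above every Nlrp10 level given here. Epidermal T cells had 5 UMIs in 524 cells (0.954% of cells, median depth 2357), or 0.355 per 1000 UMIs of the keratin gene Krt14 (0.115 to 0.829), against 0.656 (0.618 to 0.696) in basal keratinocytes. That interval included the basal ratio, and the part of free keratinocyte RNA in these UMIs was not tested. Langerhans cells had 11 UMIs, 2.08 per 1000 Krt14 UMIs (1.04 to 3.72), above the basal ratio. Their Nlrp10 level of 7.16 CPM did not differ beyond counting error from that of spinous keratinocytes. Langerhans over basal was 0.574 (0.286 to 1.03), so the UMIs of the gene were not confined to keratinocyte groups. Langerhans cells also had 3439 CPM of Krt14. The part of free keratinocyte RNA or of doublets in their 11 Nlrp10 UMIs was not tested.

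Pycard was the broadly expressed member. It reached 711 CPM in spinous keratinocytes (687 to 735), 599 in upper follicle keratinocytes, 555 in macrophages (541 to 569), 554 in monocytes (537 to 572), 494 in intermediate keratinocytes and 406 in dendritic cells. Lower levels followed in basal keratinocytes (234), epidermal T cells (221), dermal T cells (210), Langerhans cells (206), mast cells (179), neutrophils (173), basophils (121) and fibroblasts (119). Monocytes and macrophages did not differ beyond counting error (ratio 0.999, 0.960 to 1.04), nor did any neighbours from basal keratinocytes down to neutrophils. Groups further apart in that stretch could differ, as did Langerhans cells over basal keratinocytes (0.877, 0.782 to 0.980). Spinous keratinocytes were 1.28-fold above macrophages (1.23 to 1.34), a comparison across libraries. At 1000 UMIs per cell, Pycard was detected in 51.4% of spinous, 41.5% of upper follicle, 37.2% of intermediate and 20.2% of basal keratinocytes, and in 41.4% of monocytes, 35.5% of macrophages and 12.4% of neutrophils. No gated type lacked the gene, so no within-library background share can be given for it. Endothelial cells, of which 36 were gated, had 57.1 CPM (39.5 to 79.7).

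Casp1, encoding the effector protease of the complex, was led by monocytes at 53.3 CPM (48.1 to 58.8), 1.61-fold above macrophages at 33.1 (1.39 to 1.87). Dendritic cells (31.3), neutrophils (23.2) and Langerhans cells (20.8) came next, and no neighbours from macrophages down to Langerhans cells differed beyond counting error. Below a step of 1.97-fold (1.14 to 3.44), dermal T cells (10.6), the 4 keratinocyte groups (6.94 to 8.85), basophils (7.20) and fibroblasts (6.80) lay close together. Epidermal T cells had 5 UMIs in 4 cells. Mast cells had 0, where 3 counts would be 19.8 CPM, so they cannot be ranked. The 5 richest cells held 5.37% of the UMIs in monocytes.

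Casp4 had a different order. Neutrophils led at 113 CPM (102 to 126), 2.15-fold above monocytes at 52.7 (1.85 to 2.50), and macrophages (29.4) and dendritic cells (19.1) followed, with each step beyond counting error. Basophils had 11.7 (6.23 to 20.02), so the pair of granulocyte groups with the highest Nlrp3 lay far apart for Casp4. The next part of the order was not resolved. From dendritic cells through dermal T cells (17.5) and fibroblasts (13.1) to basophils, no neighbours differed beyond counting error. Basophils were 2.18-fold above the next group, intermediate keratinocytes (1.04 to 4.36), across libraries. Mast cells had 0 UMIs. The 36 endothelial cells had 65.4 (46.5 to 89.5) and 52.8% of them carried a UMI at a median depth of 13992. All keratinocyte groups were at 5.36 or below. The 32 neutrophil-gated cells of the epidermis had 5 Casp4 UMIs, 58.7 CPM (19.0 to 137), and 4 Nlrp3 UMIs, 46.9 CPM (12.8 to 120.1), the latter 5.03-fold below dermal neutrophils (1.95 to 18.5).

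**Figure D3:**
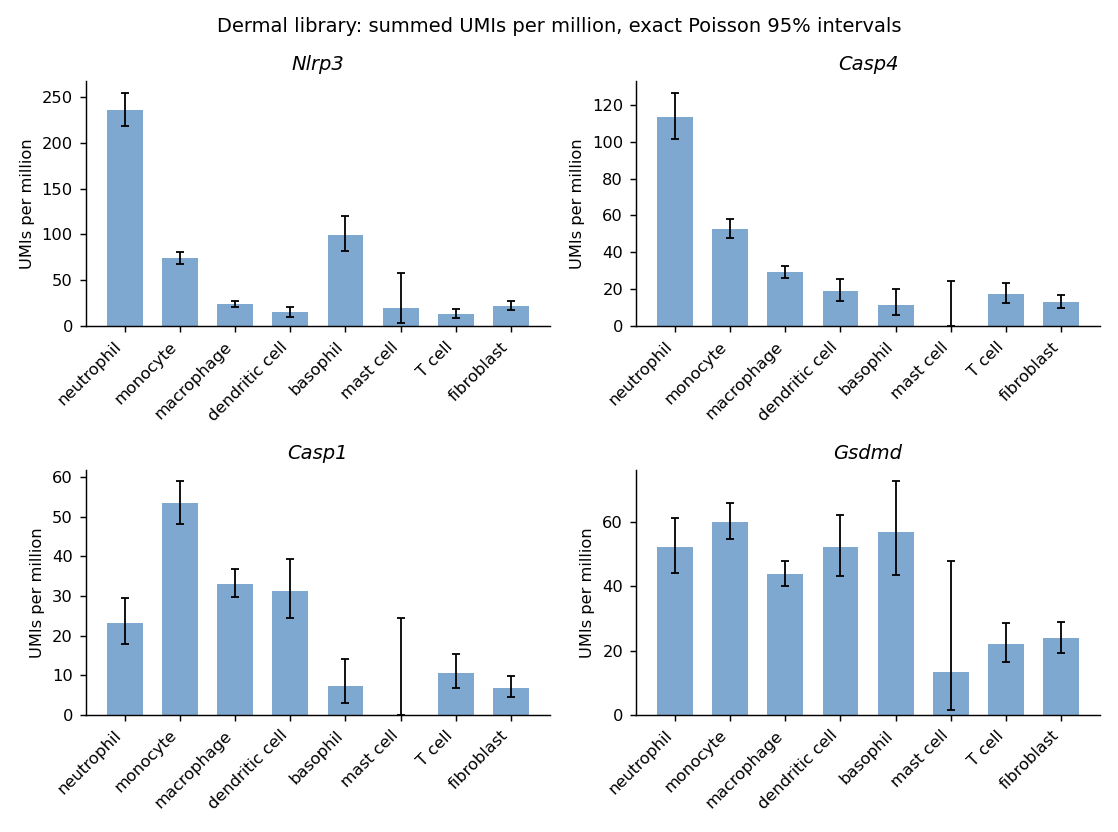
Bars give the summed CPM of Nlrp3, Casp4, Casp1 and Gsdmd in the 8 dermal groups with 50 or more cells, and lines give exact Poisson 95% intervals. Neutrophils lead for Nlrp3 (236) and Casp4 (113), monocytes lead for Casp1 (53.3), and 5 myeloid groups lie between 43.8 and 60.1 for Gsdmd.

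Gsdmd, encoding the pore-forming substrate of both caspases, differed by less than 2-fold over 5 dermal myeloid groups: it was 60.1 CPM in monocytes (54.6 to 65.98), 56.7 in basophils, 52.2 in neutrophils, 52.1 in dendritic cells and 43.8 in macrophages (40.0 to 47.9), with no neighbours differing beyond counting error. Monocytes and macrophages, at the ends of this order, did differ (ratio 1.37, 1.20 to 1.56). Mast cells had 13.2 from 2 UMIs. Fibroblasts (23.8), dermal T cells (22.0) and Langerhans cells (18.2) formed a lower tier. Keratinocytes were lowest, with 88 UMIs in the basal group (0.992 CPM, 0.796 to 1.22), 44.1-fold below macrophages (35.1 to 56.1), 5 in the intermediate, 2 in the spinous and 0 in the upper follicle group. A UMI was present in 3.04% of basal keratinocytes at a median of 32546 UMIs, against 39.1% of monocytes at 8760.

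Gsdma and Gsdmc, whose family members are known from skin epithelium, were found mainly in keratinocytes. Gsdmc followed the differentiation gates: 2.14 CPM in basal (1.85 to 2.47), 12.1 in intermediate (9.27 to 15.4) and 20.4 in spinous keratinocytes (16.5 to 24.9), with a UMI in 5.96%, 19.9% and 32.5% of cells. The basal group was also the deepest of the 3, so that the rise in share ran against depth (medians 32546, 27860 and 25355). Upper follicle keratinocytes had 6.32 (3.03 to 11.6). Langerhans cells and all dermal groups had 0 UMIs. Epidermal T cells had 2 in 524 cells, or 0.142 per 1000 Krt14 UMIs (0.0172 to 0.513) against 0.113 in basal keratinocytes.

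Gsdma was concentrated in the upper follicle group, with 42 of its 83 epidermal UMIs (50.6%, 39.4 to 61.8%) in 69 of 4173 cells. Its level there was 26.6 CPM (19.1 to 35.9), 6.12-fold above the spinous level of 4.34 (3.52 to 11.01) and 168-fold above the basal level of 0.158 (90.02 to 333). The group was gated on Krt79, Krt17, Defb6, Cst6, Fst and Klk10, and Klk7 and Cdsn, which belong to the granular list, were also among its 10 leading genes. Without a granular gate, follicle and granular cells could not be told apart within it. Of the 69 cells, 14 had a UMI, the 5 richest held 71.4% of the UMIs, and 1 cell alone had 13. Without that cell the level was 18.6 (12.4 to 26.6).

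**Figure D4:**
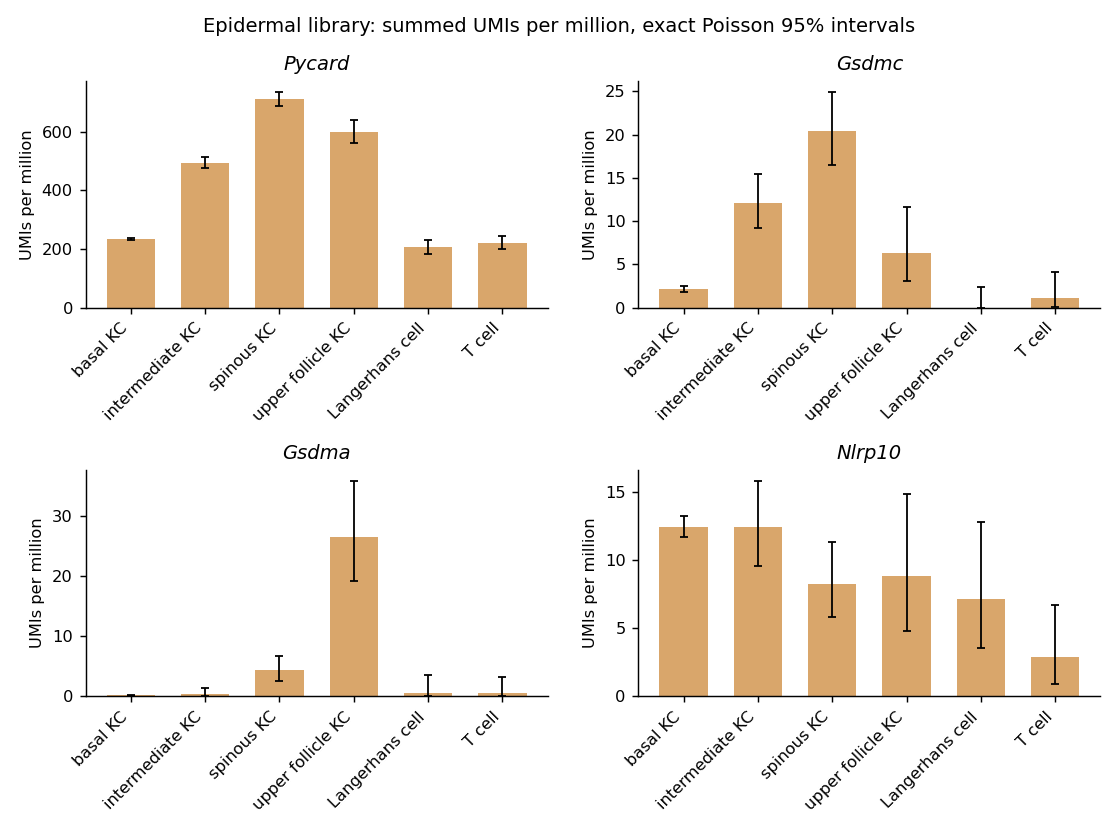
Bars give the summed CPM of Pycard, Gsdmc, Gsdma and Nlrp10 in the 6 epidermal groups with 50 or more cells, and lines give exact Poisson 95% intervals; each panel has its own axis. Pycard and Gsdmc are highest in spinous keratinocytes (711 and 20.4), Gsdma in upper follicle keratinocytes (26.6), and Nlrp10 lies between 8.24 and 12.5 in the 4 keratinocyte groups.

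The T cells and antigen-presenting cells of both tissues were also set side by side, across libraries of different depth. Dermal T cells, whose 10 leading genes included Il17a, Il17f, Il22 and Il23r, had more Gsdmd (3.81-fold, 1.92 to 8.40), Casp1 (3.67-fold, 1.39 to 12.2), Casp4 (3.37-fold, 1.62 to 7.87) and Aim2 (2.29-fold, 1.01 to 5.86) than epidermal T cells, whose leading genes included Trdc and Prf1. Their Pycard levels gave a ratio of 0.949 (0.830 to 1.09). Median depths were 7309 and 2357 UMIs. Gsdmd, Casp1, Casp4 and Aim2 were also higher in the dermal library as a whole. The part of free RNA in these T cell ratios was not tested. Dermal dendritic cells exceeded Langerhans cells in Casp4 (9.79-fold, 3.14 to 49.3), Gsdmd (2.86-fold, 1.88 to 4.48) and Pycard (1.98-fold, 1.74 to 2.25). For Nlrp3 (1.46, 0.787 to 2.82), Casp1 (1.50, 0.977 to 2.35) and Aim2 (0.813, 0.496 to 1.34) the intervals included 1. Nlrp10 was lower in dermal dendritic cells than in Langerhans cells (0.303, 0.0826 to 0.947). Langerhans cells in turn exceeded basal keratinocytes of the same library in Nlrp3 (115-fold, 46.6 to 311, on 16 and 8 UMIs) and Gsdmd (18.4-fold, 11.5 to 28.4). They also did so in Aim2 (4.81-fold, 3.24 to 6.90) and Casp1 (2.71-fold, 1.84 to 3.87). Pycard was lower in Langerhans cells (0.877, 0.782 to 0.980), and for the other members the intervals included 1.

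The mouse has several copies of both gasdermin families. Gsdma2 had 4 UMIs in all, all 4 in the upper follicle group, and Gsdma3 had 0. No run of 50 bases in the last 500 bases of the longest Gsdma transcript occurred in the transcripts of Gsdma2 or Gsdma3. For Gsdmc, 27.3% of such runs occurred in Gsdmc2, 13.7% in Gsdmc3 and 2.44% in Gsdmc4, so its counts are uncertain where reads fell in shared stretches. Gsdmc2 had 620 UMIs, all epidermal, and a flatter profile: 6.11 CPM in basal, 5.93 in intermediate, 7.59 in spinous and 1.90 in upper follicle keratinocytes. Intermediate over basal was 0.971 for Gsdmc2 (0.653 to 1.39) and 5.63 for Gsdmc (4.16 to 7.52). Gsdme, a more distant gasdermin, had its highest level in epidermal T cells at 59.9 (49.0 to 72.6) and then in Langerhans cells at 32.5.

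Ratios within a library were then compared with those of all genes that had 20 or more UMIs over both groups. Between dermal neutrophils and macrophages, 2 of the 6 members tested were 2-fold or more higher, Nlrp3 at 9.77 (8.46 to 11.3) and Casp4 at 3.86 (3.30 to 4.52), where 12.2% of the 10629 genes were. Pycard was the 1 member 2-fold or more lower, at 0.312 (0.285 to 0.342), where 36.3% of all genes were. Casp1 was lower at 0.701 (0.532 to 0.912), and the intervals of Gsdmd (1.19, 0.986 to 1.43) and Aim2 (1.27, 0.895 to 1.78) included 1. The median log2 ratio was 0.31 over the members tested and -0.60 over all genes, so that a ratio of 1 in this comparison lay above the middle of the genes. Between monocytes and macrophages, Nlrp3 alone passed 2-fold, at 3.06 (2.64 to 3.56), where 5.74% of 10937 genes did in that direction, and 0 members were 2-fold or more lower, where 11.5% of all genes were. Casp4 (1.79), Casp1 (1.61), Gsdmd (1.37) and Aim2 (1.37) were higher in monocytes with intervals above 1. Their median log2 ratio was 0.57, against -0.11 over all genes.

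Between spinous and basal keratinocytes, 3 of the 8 members tested were 2-fold or more higher, where 6.49% of 12779 genes were: Gsdma at 27.5 (13.2 to 58.8), Gsdmc at 9.51 (7.35 to 12.2) and Pycard at 3.03 (2.92 to 3.15). Gsdma had 20 spinous and 14 basal UMIs, so it met the minimum of 20 only through the group where it was high. Its place among the members tested is therefore tied to that direction. With each cell weighted equally, Gsdma was at 8.93 and Gsdmc at 13.7. Aim2 was 2-fold or more lower, at 0.400 (0.172 to 0.797), where 14.1% of all genes were. Casp1 (0.905, 0.614 to 1.29), Casp4 (0.849, 0.513 to 1.33) and Gsdmd (0.437, 0.0521 to 1.63) had intervals that included 1, and Nlrp3, with 9 UMIs over both groups, was not tested. The median log2 ratio was -0.16 over the members tested and -0.22 over all genes.

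**Figure D5:**
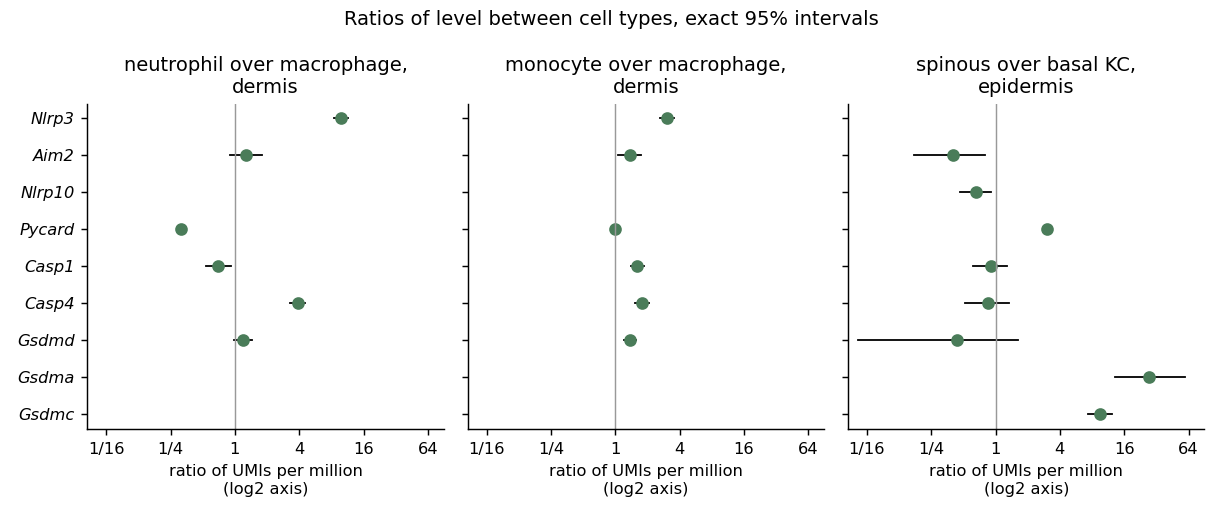
Points give the ratio of CPM between 2 gated types for each member with 20 or more UMIs over both, on a log2 axis, and lines give exact 95% intervals of counting error. Nlrp3 (9.77) and Casp4 (3.86) lie to the right and Pycard (0.312) to the left in neutrophils over macrophages, and Gsdma, Gsdmc and Pycard lie to the right in spinous over basal keratinocytes.

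Detection of several members in the same cell was limited by depth. UMIs of Nlrp3, Pycard, Casp1 and Gsdmd together were seen in 46 of 813 monocytes (5.66%, 4.17 to 7.48%), 25 of 1073 macrophages (2.33%), 11 of 593 neutrophils (1.85%), 8 of 147 dendritic cells (5.44%) and 3 of 330 fibroblasts, and in 0 of 244 basophils, 265 dermal T cells, 2733 basal keratinocytes and 191 spinous keratinocytes. At 1000 UMIs per cell the combination was seen in no cell of these types. Nlrp3 with Pycard was found in 28.8% of monocytes, 22.3% of neutrophils and 16.2% of macrophages. Within neutrophils, Pycard was detected in 46.6% of cells with Nlrp3 (40.7 to 52.6%) and 37.1% of those without (31.7 to 42.7%), but at 1000 UMIs these shares were 12.7% and 12.3%. Either caspase was detected in 54.1% of monocytes, 40.9% of macrophages, 40.5% of neutrophils and 6.97% of basophils. Nlrp10 and Pycard coincided in 27.9% of basal keratinocytes, in 763 of the 775 cells with Nlrp10, where Pycard was detected in 92.4% of all basal keratinocytes. At 1000 UMIs they coincided in 6 of 2640 cells, where Nlrp10 was detected in 1.25% and Pycard in 20.2% of basal keratinocytes.

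Other genes of the pathway were taken from a list of 47 measured symbols in 6 groups. Of 12 other sensors, 3 reached 50 CPM in a gated type and 6 stayed below 10 in all. Zbp1, encoding a sensor of Z-form nucleic acids, was highest in monocytes at 164 (155 to 173), as was the DNA sensor gene Ifi204 at 143 (135 to 152). Mefv, encoding pyrin, was highest in neutrophils at 61.2 and monocytes at 53.4. Of the NLR and NAIP families, Nlrp12 was at 18.3 in neutrophils (13.7 to 23.98) and at or below 1.26 in all other groups, Naip2 reached 12.0 and Naip5 10.1 in monocytes, and Nlrp1a, Nlrp1b, Nlrp6, Nlrc4, Naip1 and Naip6 stayed below 10.

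Of 11 sensor partners and signals, 4 reached 50 CPM. Txnip, encoding a partner of NLRP3 and thioredoxin, was highest in basophils (541) and neutrophils (393), Pstpip1, encoding a pyrin-binding protein, in neutrophils (147) and the interferon-inducible Gbp2 in neutrophils (60.2). The kinase gene Nek7 reached 52.9 in mast cells on 8 UMIs and had a median of 24.1 over the 14 groups. P2rx7, encoding the ATP-gated channel upstream of NLRP3, was highest in macrophages at 23.7 (20.9 to 26.8). Among the other caspases, Casp6 reached 212 in dendritic cells and Casp8 reached 66.9 in macrophages. Casp14, a caspase of cornification, was highest in spinous keratinocytes at 37.1 and had 0 dermal UMIs.

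Of 8 other pore proteins, 2 reached 50 CPM: Gsdme (above) and Ninj1, whose product ruptures the membrane at the end of lytic death and which was highest in neutrophils at 414 (391 to 438) and next in macrophages at 211. Of 8 proteases and inhibitors, 4 did. Card19 was highest in neutrophils at 498, Trim30a in neutrophils at 51.2, Serpinb1a, an inhibitor of neutrophil serine proteases, in mast cells at 4919, and the protease gene Ctsg in mast cells at 258. Both caspase-1 substrates passed the same level, in different cells. Il1b was 6126 in neutrophils, 2397 in basophils, 1758 in monocytes, 508 in macrophages and 5.70 in basal keratinocytes. Il18 was 178 in Langerhans cells (157 to 199.97), 73.7 in macrophages, 39.9 in monocytes and 13.5 in neutrophils.

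Likeness of pattern was described by Pearson's r of log2(CPM + 1) over the 14 groups, ranked among 12550 genes. The points share libraries and the depth of their groups, and no test was made. Nlrp3 was most like Il1b (r = 0.98), Clec4d (0.97) and Emilin2 (0.97). Gsdmd was most like Nrros (0.99), Fcho2 (0.97) and Ehbp1l1 (0.97), Casp1 most like Plcg2 (0.98), Sgk3 (0.92) and Adam15 (0.91), and Casp4 most like Atg2a (0.94), Flcn (0.94) and Sbno2 (0.93). Nlrp10 was nearest to Itpka (0.97), Plek2 (0.97) and Stap2 (0.96), Gsdmc to genes that included Gm47071 (0.99) and H60c (0.99), Gsdma to Folr1 (0.95), Ly6g6c (0.95) and Nfe2l3 (0.95), and Aim2 to Zc3h3 (0.91), Cyp4f13 (0.89) and Camta2 (0.89). Pycard, with high levels in both myeloid and keratinocyte groups, had the weakest matches, Gm14698 (0.84), Gltp (0.83) and Shtn1 (0.82).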

How the data were processed

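Droplet 3′ single-cell RNA-seq was analysed in 1 dermal and 1 epidermal library (41258087 and 108768396 UMIs). The authors deposited raw UMI counts per gene and barcode, made with Cell Ranger (3.0.2 in the matrix header) on mm10. Of 31053 gene identifiers, 31011 were found in GENCODE M21. Cells with at least 200 genes and at most 10% mitochondrial UMIs were retained.

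Cell types were gated on markers at 2 or more UMIs per 10000, with a minimum number of markers for each type. Dendritic cells were the exception. They needed 2 markers with any UMI, which deeper cells meet more easily, and Cd74, H2-Aa and H2-Eb1 at 50 per 10000 together. A cell passing several gates went to the type with the larger share of markers on if it led by 0.1. Among cells passing no other gate, basal keratinocytes had Krt5 and Krt14 at 80 per 10000 together and neither Krt1 nor Krt10 at 5, intermediate cells had either, spinous cells both with 4 spinous markers, and upper follicle cells 3 follicle markers with Krt79, or 4. Gate thresholds were set after the counts were seen, and the members, markers and pathway lists were chosen with earlier results of these data known. Scrublet marked 0 dermal and 8 epidermal doublets at its own threshold, and the marked cells were left in the main results.

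UMIs were summed per group and not tested over cells. Intervals are exact (Poisson, Clopper-Pearson, conditional binomial for ratios), a 0 has a floor of 3 counts, and 2-fold counts used 0.5 added UMI. Cells were thinned to 1000 or 2000 UMIs, leaving out shallower cells (20 neutrophils, 93 basal keratinocytes and 79 mast cells at 1000). All members are reported in every type, pathway genes are named at 50 CPM or as relatives of a member, and similar genes had 100 or more UMIs. Some genes that met these rules are not reported here. Alternatives were other cell filters, stricter gates, removal of high doublet scores or of the richest cell, a mean over cells, and thinning. The code was tested on simulated counts. Python 3.11.15, numpy 2.4.6, scipy 1.17.1, scanpy 1.11.5 and matplotlib 3.10.9 were used.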

Additional observations from a re-analysis of the deposited data

How the results depend on the processing

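No paired analysis was possible because dermis and epidermis were sequenced as single libraries without replicate numbers. The ratios of the 6 members between neutrophils and macrophages and of the 8 between spinous and basal keratinocytes stayed within their intervals under the study's cell filter, no cell filter, stricter gates, removal of the highest doublet scores and removal of the richest cell, except Pycard in keratinocytes, which was 3.22 under stricter gates (3.03 otherwise). The mean over cells of each cell's CPM, which weights shallow cells as much as deep ones, gave spinous over basal ratios of 0.997 for Nlrp10 (0.661 from summed UMIs), 8.93 for Gsdma (27.5) and 13.7 for Gsdmc (9.51); Nlrp10 was lower in spinous cells only in the summed UMIs. Stricter gates moved Nlrp10 in basal keratinocytes from 12.5 to 13.3 and Gsdma in upper follicle keratinocytes from 26.6 to 42.5 CPM. Depth limits the shares of cells with a UMI. In the type with the highest level, shares at full depth, 1000 and 2000 UMIs were 47.7, 22.0 and 32.4% for Nlrp3, 16.2, 0.552 and 1.72% for Aim2, 28.4, 1.25 and 2.15% for Nlrp10, 94.2, 51.4 and 73.1% for Pycard, 34.4, 4.33 and 9.36% for Casp1, 35.9, 9.42 and 19.1% for Casp4, 39.1, 6.43 and 12.98% for Gsdmd, 20.3, 0 and 6.35% for Gsdma and 32.5, 3.78 and 3.43% for Gsdmc.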

Other observations

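Within monocyte-gated cells, 12 of 813 had at least 4 of the interferon-induced genes Isg15, Ifit1, Ifit3, Irf7 and Rsad2 on, a split chosen after the values were seen. Aim2 was at 89.6 CPM in these 12 cells (8 UMIs) against 16.6 in the other 801, a ratio of 5.41 (2.28 to 11.01), and Casp1 was at 123 against 52.4, a ratio of 2.35 (1.16 to 4.25). Nlrp3 was at 33.6 against 74.5, a ratio of 0.451 (0.0927 to 1.32), and Pycard at 526 against 555. For Gsdmd (ratio 1.88) and Casp4 (1.49) the intervals included 1. The same split was made in macrophage-gated cells, where 5 cells met it and 1068 did not. The 5 cells had 0 UMIs of Aim2, Casp1, Gsdmd and Nlrp3. Upper limits of these ratios were 10.2, 3.92, 2.96 and 5.38, so a difference in either direction was not resolved. The macrophage intervals of Pycard (1.07) and Casp4 (1.19) included 1. These intervals cover counting error only, and cells of 1 library are not replicates.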
